A study of Rattus norvegicus with 2 samples.

Results

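The genes described here are the transcripts of 7 solute carrier families that move amino acids and close relatives of amino acids across membranes. A gene was taken where its symbol is Slc1a, Slc3a, Slc6a, Slc7a, Slc36a, Slc38a or Slc43a followed by digits only, which gave 47 of the 13706 protein-coding genes listed with at least 1 read. They were measured in the myocardium of spontaneously hypertensive rats (SHR), inbred animals that become hypertensive with age, so both groups carry the hypertensive background. One group received KXH, the high dose of Jiangya Kangxian formula (9.6 g/kg), into the stomach, and the other received distilled water, each for 12 weeks. RNA sequencing gave 1 library per group, of 14.1 M reads for KXH and 15.1 M for water (M, 1000000). The labels give no age, and the number of animals behind each library is not given. No normotensive strain was analysed here. Because each treatment has 1 library, nothing below could be tested against replicates, and "higher" and "lower" compare these libraries only. Ratios carry 95% exact counting intervals, which hold neither animal-to-animal nor preparation error.

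Heart muscle takes amino acids from the blood for protein synthesis, for energy and for its large pools of glutamine, glutamate and taurine. System A carriers of the Slc38 family bring in small neutral amino acids with sodium, and heterodimers of a glycosylated heavy chain (Slc3) and a light chain (Slc7) exchange them for large neutral, cationic or acidic ones. Carriers of the Slc36 family and some of the Slc38 family sit on lysosomes and pass amino acids, or a signal of their presence, to the growth-controlling kinase complex mTORC1. The Slc6 family also carries taurine, creatine, betaine and monoamine transmitters, and Slc43a3 carries nucleobases, so the families are broader than amino acids alone.

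Most of the well-measured transporter transcripts were close to the water level in the KXH library, and the well-measured transcript that stood farthest from it was Slc7a1, the main carrier of arginine and lysine into many cells, at 1.43-fold. Slc38a1 and Slc7a6 were 1.16-fold higher each, and the creatine carrier Slc6a8 and the taurine carrier Slc6a6 were 1.15-fold and 1.16-fold lower. The most abundant transporter, Slc38a2, was 1.10-fold lower. Of the 9 members with at least 50 but under 200 reads, 8 lay below the water level, led by Slc43a1 at 1.63-fold lower. Among all genes with as many reads, 57.4% did.

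Of the 47 members, 21 had at least 200 reads over both libraries, the minimum used for calls, and 26 had fewer. Among these 21, 1 member (Slc7a1) was at least 1.3-fold higher in KXH, while 2.07% of the 8761 genes past the same minimum were. None was at least 1.3-fold lower, while 3.36% of all genes were. The counting interval lay above 1 for 3 members (12.3% of all genes) and below 1 for 4 (17.4% of all genes), so 14.3% and 19.0% of the members stood near the background shares. The median log2 ratio on the log2(RPKM + 1) scale, where RPKM is reads per kilobase of gene length per 1000000 reads, was 0.03 for the members and -0.02 for all genes. Its sign depends on the read minimum: it was -0.055 over the 29 members that averaged 1 RPKM or more and -0.11 over the 9 with at least 1000 reads. Of the 21 members, 20 lay within 1.2-fold of the water level, against 86.6% of all genes. The plot of ratios against read number places the members among all genes.

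**Figure D1:**
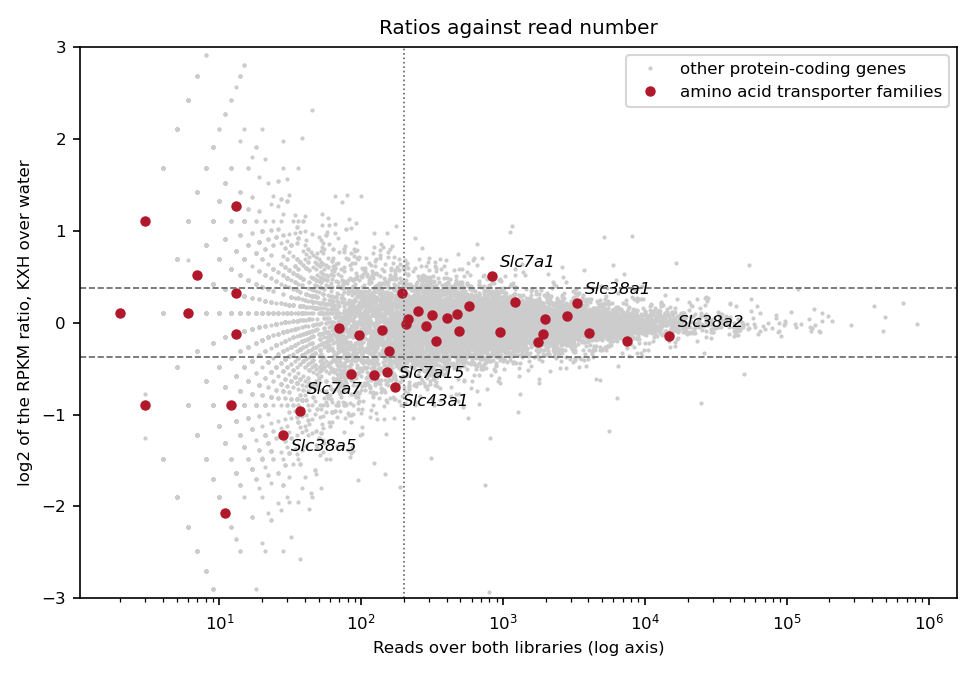
Log2 RPKM ratio of KXH over water against the reads of a gene over both libraries (log axis), for genes with reads in both; red points are members, grey points other protein-coding genes, dashed lines 1.3-fold and the dotted line 200 reads. Among the red points right of the dotted line only Slc7a1 lies past a dashed line, at 1.43-fold; genes with ratios beyond the axis range are not drawn.

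In level, 10 members averaged 10 RPKM or more, 19 lay between 1 and 10, and 18 lay under 1. Slc38a2 led at 105.2 RPKM in KXH and 116.0 in water, above 95.04% and 95.65% of the genes listed in its library. It was followed in both libraries by Slc6a8, Slc38a1 and Slc38a3, and these 4 genes together held 56.7% of the summed RPKM of all members in KXH and 56.6% in water. The 8 highest members were the same in both libraries, with Slc3a2 and Slc43a3 exchanging the places 5 and 6. Neither neighbour in that pair differed between libraries beyond its counting interval. Further down, Slc7a1 was number 18 in water and number 15 in KXH, and Slc43a1 was number 21 in water and number 25 in KXH. The summed level of all members was 470.5 RPKM in KXH and 488.6 in water, a ratio of 0.963.

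**Figure D2:**
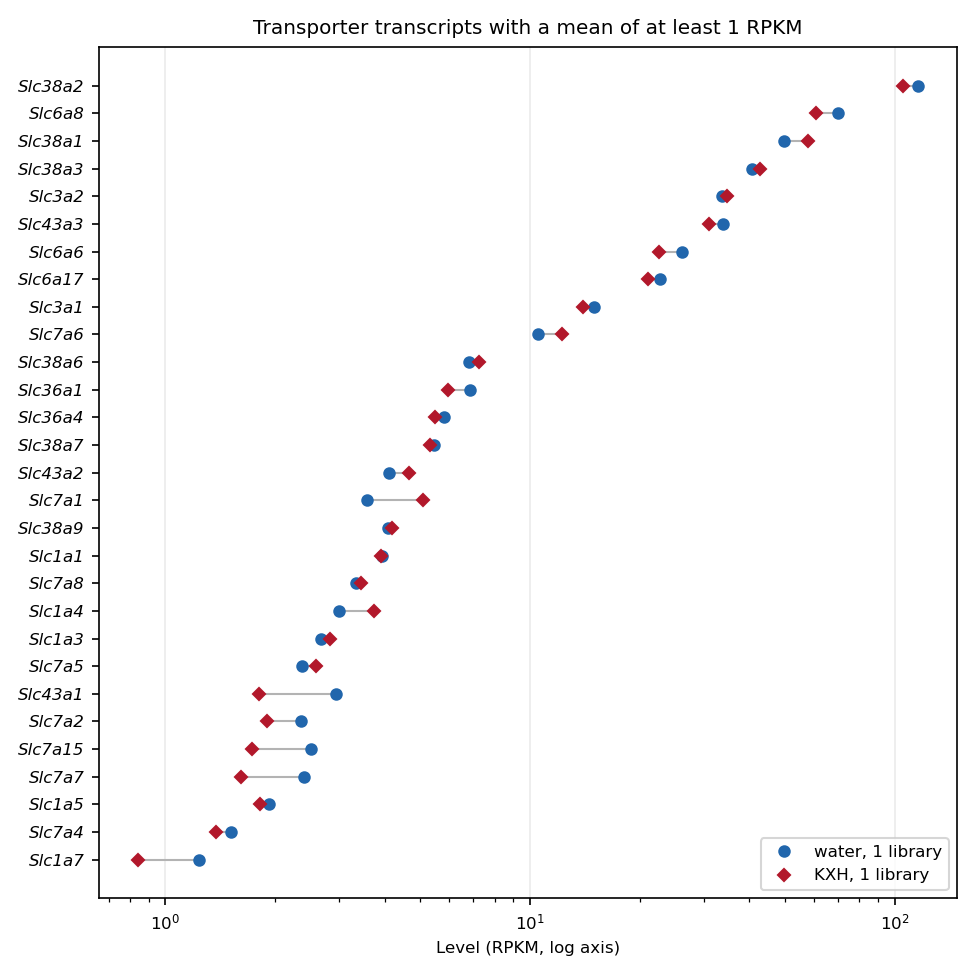
Level of each member with a mean of at least 1 RPKM (log axis, RPKM) in the KXH library (red diamond) and the water library (blue circle), 1 library each, joined by a grey line. The paired points lie close together for most genes, from Slc38a2 at 105.2 and 116.0 RPKM downward, with wider gaps for Slc7a1, Slc43a1, Slc7a15, Slc7a7 and Slc1a7.

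System A, the sodium-coupled uptake of alanine, serine and glutamine, was carried mostly by Slc38a2 and Slc38a1. Slc38a2, whose transcript is known to respond to amino acid shortage, had 6822 reads in KXH and 8077 in water, 1.10-fold lower in KXH (interval 1.07 to 1.14). Slc38a1, a glutamine carrier of the same system, had 1717 and 1585 reads at 57.7 and 49.6 RPKM and was 1.16-fold higher (1.09 to 1.25). The pair therefore lay on opposite sides of 1, and the level of Slc38a2 over that of Slc38a1 was 1.82 in KXH and 2.34 in water. The third carrier, Slc38a4, had 4 and 8 reads. Summed over the 3 genes the level was 163.1 RPKM in KXH and 165.9 in water.

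Among the other Slc38 genes, Slc38a3, which exchanges glutamine against protons and is abundant in liver, was at 42.8 RPKM in KXH and 40.6 in water, with a ratio of 1.05 (0.979 to 1.14). Slc38a6 was at 7.27 and 6.80 RPKM, with a ratio of 1.07 (0.890 to 1.29). Slc38a7, a lysosomal exporter of glutamine and asparagine, had a ratio of 0.974 (0.766 to 1.24) on 136 and 150 reads. Slc38a9, the lysosomal arginine sensor that acts on mTORC1, had one of 1.03 (0.777 to 1.35) on 105 and 110 reads. All 4 intervals include 1, and differences of this size were not detectable at this depth. Slc38a5, another glutamine carrier, had 8 reads in KXH and 20 in water, and Slc38a8 had 4 and 3.

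Heavy chains and light chains form the exchangers. The heavy chain Slc3a2, also called CD98, brings its light chains to the cell surface and stood at 34.6 RPKM in KXH and 33.6 in water, a ratio of 1.03 (0.941 to 1.13). Its 5 light chains measured here, Slc7a5, Slc7a6, Slc7a7, Slc7a8 and Slc7a11, summed to 19.9 RPKM in KXH and 18.7 in water, so the heavy chain was 1.74 and 1.80 times the light chains in transcript level. Slc7a6, which exchanges cationic against neutral amino acids, made up 61.5% of that sum in KXH and 56.3% in water. It had 629 and 580 reads at 12.3 and 10.5 RPKM, 1.16-fold higher in KXH (1.04 to 1.31). Slc7a5, the leucine exchanger of growing cells, was far lower at 2.59 and 2.37 RPKM, with a ratio of 1.09 (0.845 to 1.41). Its relative Slc7a8 was at 3.45 and 3.33 RPKM, with a ratio of 1.04 (0.850 to 1.27). Slc7a7, a cationic amino acid exchanger known from macrophages, kidney and gut, had 47 reads in KXH and 75 in water, 1.49-fold lower (1.02 to 2.19). Slc7a11, the cystine importer that feeds glutathione synthesis, had 2 and 9 reads, a ratio of 0.239 with an interval from 0.025 to 1.15. Slc7a15 was 1.45-fold lower (1.04 to 2.05) on 59 and 92 reads, Slc7a12 had 2 and 1 reads, and Slc7a9, the partner of Slc3a1 in kidney, had 1 read in KXH and 0 in water.

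The heavy chain Slc3a1, best known for cystine reabsorption in kidney and for cystinuria, had 444 reads in KXH and 513 in water, with a ratio of 0.930 (0.817 to 1.06). Those reads lay on a small part of the gene. The deposited coverage of its length was 27.0% in KXH and 37.3% in water. Among the 1165 genes in KXH and the 1170 in water whose reads were within 1.2-fold of its own, 0 had lower coverage, and the median was 98.4% and 98.6%. In RefSeq (GRCr8) Slc3a1 overlaps the gene Prepl, a peptidase-like hydrolase, which had 2611 and 2862 reads. The use of strand in counting is not given, so reads of such overlapping genes cannot be told apart, and the source of the Slc3a1 reads was not tested. Apart from Slc3a1 and Slc7a15, the members with at least 100 reads over both libraries were covered over 84.2% to 99.96% of their length, as the plot of coverage against reads shows. RefSeq overlaps a listed protein-coding gene with 5 of the 47 members, the other 4 being Slc1a1, Slc6a9, Slc38a6 and Slc38a8.

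**Figure D3:**
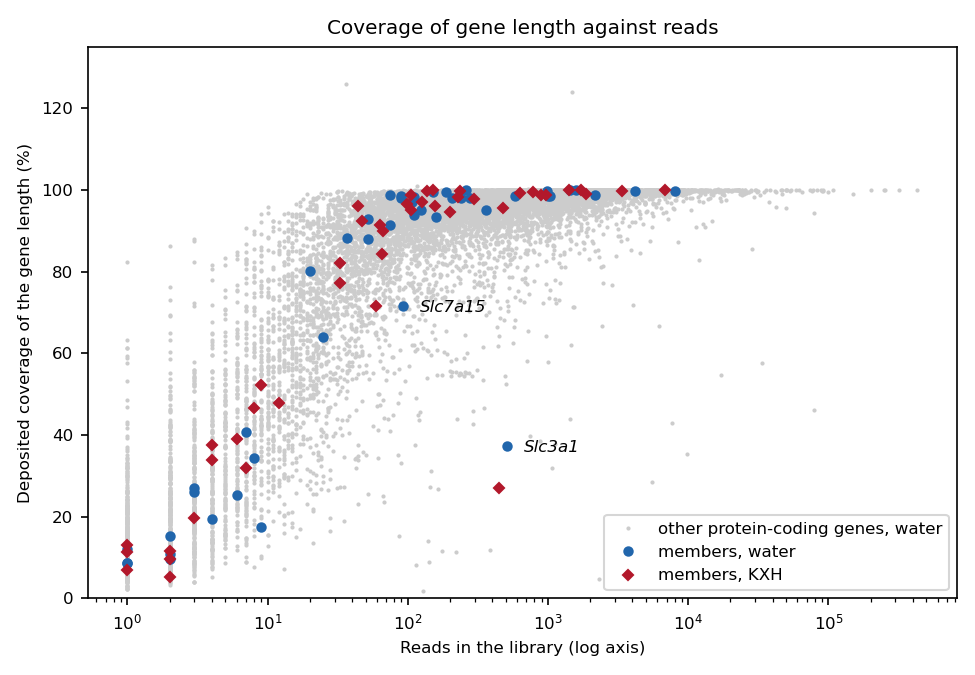
Deposited coverage of the listed gene length (percent) against the reads of the gene in a library (log axis); members are blue circles in water and red diamonds in KXH, grey points are the other genes in water. Slc3a1 lies far under the band of genes with like reads, at 27.0% in KXH and 37.3% in water, and Slc7a15 at 71.6% in both.

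The cationic carriers held the ratio farthest from 1 among members with at least 200 reads. Slc7a1 had 475 reads in KXH and 358 in water, at 5.11 and 3.58 RPKM, which is 1.43-fold higher (1.24 to 1.64). It stood above 40.6% of the listed genes in KXH and above 34.8% in water. Its deposited coverage was 95.62% in KXH and 94.98% in water. The median of genes with like reads was 98.45% and 98.08%. Slc7a2, an arginine carrier that is induced in activated macrophages, had 67 and 89 reads and a ratio of 0.809 (0.580 to 1.12), and the level of Slc7a1 over that of Slc7a2 was 2.68 in KXH and 1.52 in water. Slc7a4 had 44 and 52 reads and a ratio of 0.909 (0.594 to 1.39), and Slc7a14 had 2 reads in KXH and 0 in water.

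Creatine and taurine are held by heart muscle at high concentration and enter through Slc6a8 and Slc6a6. Slc6a8 had 3353 reads in KXH and 4147 in water, at 60.9 and 70.2 RPKM, 1.15-fold lower (1.10 to 1.21). Slc6a6 had 785 and 975 reads at 22.6 and 26.1 RPKM, 1.16-fold lower (1.05 to 1.27). The 2 ratios were alike, and the level of Slc6a8 over that of Slc6a6 was 2.70 in KXH and 2.69 in water. The betaine carrier Slc6a12 had 6 and 7 reads and the GABA and taurine carrier Slc6a13 had 3 in each library.

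Slc6a17, a vesicular carrier of neutral amino acids best known from synapses, was among the 8 most abundant members. It had 1869 reads in KXH and 2169 in water over 98.9% and 98.8% of its length, at 21.0 and 22.7 RPKM, 1.08-fold lower (1.02 to 1.15). With the trend of the ratio on gene length removed its ratio was 0.963 and the interval included 1. The glycine carrier Slc6a9 had 33 and 37 reads and a ratio of 0.958 (0.581 to 1.57). The serotonin carrier Slc6a4 had 12 reads in KXH and 25 in water, 0.322 against 0.625 RPKM, with a ratio of 0.516 (0.236 to 1.07). The other Slc6 members, Slc6a7, Slc6a15, Slc6a19 and Slc6a20, had between 1 and 9 reads in each library.

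The Slc1 family, which holds the glutamate carriers, was present at low levels. Slc1a1, a neuronal and epithelial glutamate and cysteine carrier, was at 3.90 RPKM in KXH and 3.93 in water, with a ratio of 0.994 (0.748 to 1.32). Slc1a3, the glutamate carrier of glia, was at 2.84 and 2.67 RPKM, with a ratio of 1.06 (0.845 to 1.33). Several markers of Schwann cells, the glia of peripheral nerve, were lower in KXH in the same libraries. Sox10 had 43 and 107 reads, Cdh19 30 and 93, and S100b 8 and 30. On the list of such markers 7 of 9 genes had a ratio below 1 (54.7% of all genes with at least 200 reads). The interval was below 1 for 5 of the 9 and above 1 for 1 (13.5% and 8.97% of all genes). That list also holds nerve cell genes, among them Prph at 5.07 RPKM in KXH and 3.36 in water. The summed level of the whole list, glial and nerve cell genes together, was 12.1 RPKM in KXH and 17.0 in water. Its part in the Slc1a3 value was not tested. The neutral amino acid exchanger Slc1a4 had 105 and 90 reads, 5 short of the minimum, and a ratio of 1.25 (0.937 to 1.68). The glutamine exchanger Slc1a5, a carrier much studied in tumour cells, was at 1.82 and 1.93 RPKM with a ratio of 0.943 (0.666 to 1.34). Slc1a7, known from retina, had 33 and 52 reads and a ratio of 0.682 (0.427 to 1.07), and the glial carrier Slc1a2 had 0 reads in KXH and 2 in water.

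Among the proton-coupled carriers, Slc36a1, which exports small amino acids from lysosomes, was at 5.98 RPKM in KXH and 6.85 in water, with a ratio of 0.873 (0.7001 to 1.09). Slc36a4 was at 5.48 and 5.81 RPKM, with a ratio of 0.942 (0.786 to 1.13). Neither difference was detectable at this depth. Slc36a2 had 0 and 2 reads and Slc36a3 had 0 and 1, counts at or under the 3 reads that a count of 0 allows.

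The sodium-independent family held the lowest ratio among members with at least 50 reads. Slc43a1, a carrier of large neutral amino acids, had 63 reads in KXH and 110 in water, 1.81 against 2.95 RPKM, which is 1.63-fold lower (1.18 to 2.25). Its relative Slc43a2 had 294 and 278 reads and lay on the other side, with a ratio of 1.14 (0.961 to 1.34). Slc43a3, the nucleobase carrier, was at 31.1 and 33.9 RPKM, with a ratio of 0.917 (0.837 to 1.004). Red cell precursors use Slc43a1 and Slc6a9, and all 9 listed erythroid markers had a ratio below 1, with a summed level of 2276 RPKM in KXH and 3346 in water. Most of that sum was Hbb, at 2234 and 3283 RPKM, and the interval was below 1 for 3 of the 9 (13.5% of all 13706 genes). In bulk tissue fewer cells of a type and less RNA per cell cannot be told apart, and the part of these cells in the Slc43a1 value was not tested.

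Of the 9 members with at least 50 but under 200 reads, 8 had a ratio below 1 and 1 (Slc1a4) above, while 57.4% of the 1860 genes with as many reads lay below 1. The interval was below 1 for 3 of them, Slc43a1, Slc7a7 and Slc7a15, and the share over all genes with as many reads was not computed. Over all 47 members the interval was below 1 for 7 (14.9%, against 13.5% of all 13706 genes). It was above 1 for 3 (6.38%, against 8.97%), so both shares stood near those of all genes. Of the remaining 17 members, none passed 37 reads over both libraries and every interval included 1. Markers of macrophages, where Slc7a7 and Slc7a2 are known, had a ratio below 1 for 6 of 12 genes. Over all genes with at least 200 reads, 54.7% did. The summed level of these markers was 350.3 RPKM in KXH and 361.7 in water. The interval was below 1 for 2 of them, Lyz2 and Cd68, and above 1 for 1, C1qa (13.5% and 8.97% of all genes). Cd68 was 1.74-fold lower (1.34 to 2.27) on 90 and 168 reads. The part of macrophages in the Slc7a7 and Slc7a2 values was not tested.

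**Figure D4:**
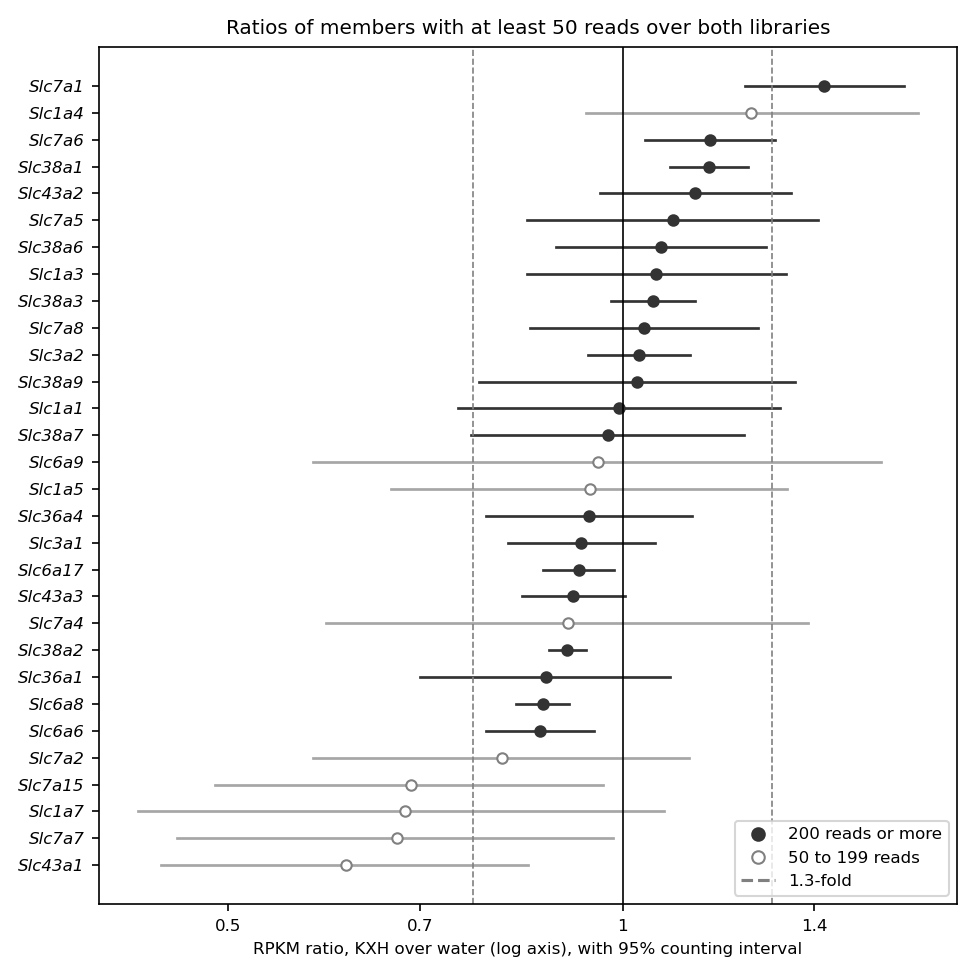
RPKM ratio of KXH over water (log axis) for members with at least 50 reads over both libraries, with exact 95% intervals for counting error; filled points have 200 reads or more, open points fewer, dashed lines mark 1.3-fold. Slc7a1 is alone above the upper line at 1.43, and the 4 points under the lower line, from Slc43a1 at 0.615 to Slc7a15 at 0.689, are all open.

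Promoter sequences were examined for motifs of factors known to act on transporter genes: the composite site of ATF4 and C/EBP (TTGCATCA), through which amino acid shortage raises transcription, the E-box (CACGTG), and the core of the antioxidant response element (TGACNNNGC). Windows from 250 bases before to 50 after the start site were found in RefSeq (GRCr8) for 38 of the 47 members. Slc1a1, Slc1a5, Slc6a4, Slc6a13, Slc6a15, Slc7a2, Slc7a4, Slc38a3 and Slc43a3 had none. The exact letters TTGCATCA were found on either strand in 2 of the 38, Slc38a1 and Slc1a4, and in 0.726% of 19005 protein-coding promoters. Other spellings of the site and bases outside the windows were not searched, so a member without a match may still hold a site. The E-box was found in 7 members and 7.27% of promoters, and the antioxidant core in 7 members and 12.7% of promoters. Slc38a1 and Slc1a4 had ratios of 1.16 (1.09 to 1.25) and 1.25 (0.937 to 1.68). Among members with the antioxidant core and at least 100 reads, only Slc7a1 lay above 1, at 1.43. Slc7a7 at 0.673 (0.457 to 0.982), Slc6a6 at 0.865, Slc36a1 at 0.873, Slc38a2 at 0.907 and Slc3a1 at 0.930 lay below. The intervals of Slc36a1 and Slc3a1 included 1. Over all genes with at least 200 reads, 54.7% lay below 1. A match describes letters and is no evidence of binding.

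The windows are printed for Slc7a1, the member farthest from its water level among those with at least 200 reads. They are also printed for Slc38a1 and Slc1a4, which hold the letters TTGCATCA, and for Slc38a2, the most abundant member. Capitals mark a match to any of the 3 motifs on either strand.
Slc7a1 promoter, GRCr8 chr12:11664238-11664537, plus strand: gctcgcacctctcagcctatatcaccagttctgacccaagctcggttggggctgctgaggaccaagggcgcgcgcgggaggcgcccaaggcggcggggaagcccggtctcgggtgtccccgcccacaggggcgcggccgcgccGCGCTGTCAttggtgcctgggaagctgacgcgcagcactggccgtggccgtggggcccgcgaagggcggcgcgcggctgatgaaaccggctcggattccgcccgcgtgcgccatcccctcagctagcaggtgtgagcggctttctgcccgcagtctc
Slc38a1 promoter, GRCr8 chr7:129681352-129681651, minus strand: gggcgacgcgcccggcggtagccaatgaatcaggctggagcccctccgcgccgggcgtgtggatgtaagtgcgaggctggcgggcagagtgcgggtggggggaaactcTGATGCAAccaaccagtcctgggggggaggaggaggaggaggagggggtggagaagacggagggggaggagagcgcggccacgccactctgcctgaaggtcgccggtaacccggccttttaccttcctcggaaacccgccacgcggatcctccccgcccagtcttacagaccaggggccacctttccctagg
Slc1a4 promoter, GRCr8 chr14:98761513-98761812, minus strand: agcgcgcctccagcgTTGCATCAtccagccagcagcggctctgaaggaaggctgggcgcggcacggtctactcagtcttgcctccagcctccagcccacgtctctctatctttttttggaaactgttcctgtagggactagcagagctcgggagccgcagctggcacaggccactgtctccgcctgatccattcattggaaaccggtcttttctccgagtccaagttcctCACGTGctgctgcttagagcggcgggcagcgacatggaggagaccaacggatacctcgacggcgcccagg
Slc38a2 promoter, GRCr8 chr7:129742570-129742869, minus strand: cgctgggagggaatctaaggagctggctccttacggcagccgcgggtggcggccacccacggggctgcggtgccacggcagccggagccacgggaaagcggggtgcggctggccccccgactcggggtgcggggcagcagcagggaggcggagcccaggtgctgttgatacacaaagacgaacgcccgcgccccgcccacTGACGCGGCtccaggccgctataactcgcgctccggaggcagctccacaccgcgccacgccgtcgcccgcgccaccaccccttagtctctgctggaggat
The match in Slc38a1 starts 142 bases before the start site and that in Slc1a4 235 bases before it. Slc1a4 also has an E-box 20 bases before the start site. Slc7a1 and Slc38a2 have an antioxidant core 107 and 50 bases before it, and their ratios were on opposite sides of 1. The GC content of these windows was 72.0% for Slc7a1, 68.0% for Slc38a1, 60.7% for Slc1a4 and 72.3% for Slc38a2. The median was 56.3% over the 38 member windows and 55.3% over all promoters.

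Genes that act with the transporters were taken from 11 lists. Of their 137 different genes with at least 200 reads, 0 were at least 1.3-fold higher in KXH (2.07% of all genes) and 2 were at least 1.3-fold lower (3.36%), with a median log2 ratio of -0.03. One of the latter was Rragd, a GTPase that recruits mTORC1 to lysosomes, at 23.7 RPKM in KXH and 31.9 in water, 1.35-fold lower (1.196 to 1.514). The other was Prodh, the first enzyme of proline breakdown, at 47.6 and 62.6 RPKM, 1.31-fold lower (1.23 to 1.41). In the mTORC1 and amino acid sensing list 16 of 31 genes had a ratio above 1 and 15 below. The integrated stress response raises Slc38a2, Slc7a1 and Slc7a5 when amino acids run short. Of the 24 genes on its list 11 had at least 200 reads. Among those 11, 5 had a ratio above 1 and 6 below, and none passed 1.3-fold. Over all 24 genes the interval was above 1 for 3 and below 1 for 2 (8.97% and 13.5% of all genes).

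The lists that follow are counted over their genes with at least 200 reads. Over all 8761 genes with that many reads, 54.7% had a ratio below 1. All 5 genes of creatine synthesis and creatine kinases had a ratio below 1, but for the synthesis genes Gatm and Gamt the interval included 1. Among the kinases, the mitochondrial Ckmt2 was at 2488 RPKM in KXH and 2741 in water, 1.10-fold lower (1.09 to 1.12). Of the 6 genes of cysteine, glutathione and taurine synthesis, most of them glutathione genes, 5 had a ratio below 1, among them Gclm, a subunit of the enzyme that starts glutathione synthesis, 1.17-fold lower (1.02 to 1.35). The taurine enzyme Csad had a ratio of 0.829 (0.637 to 1.08). Over all 15 genes of that list, whatever their reads, the interval was below 1 for 1 and above 1 for 2 (13.5% and 8.97% of all genes). Arginine and nitric oxide genes went both ways. Of 7 genes, 5 had a ratio above 1. Ddah1, which breaks down an inhibitor of nitric oxide synthase, was 1.29-fold lower (1.108 to 1.501), at 7.92 RPKM in KXH and 10.2 in water. Its more abundant relative Ddah2 went the other way, at 56.8 and 50.6 RPKM, with a ratio of 1.12 (1.03 to 1.23). On fewer than 200 reads each, the neuronal nitric oxide synthase Nos1 was 2.08-fold higher (1.51 to 2.89) and the inducible Nos2 2.07-fold lower (1.44 to 3.01). The endothelial synthase Nos3 was 1.14-fold lower (1.07 to 1.22), and ornithine decarboxylase Odc1, which uses arginine-derived ornithine, had a ratio of 1.09 (1.01 to 1.16). Branched-chain amino acid breakdown had 14 of 19 genes below 1 and 0 past 1.3-fold, with Dbt, the core subunit of the branched-chain dehydrogenase, 1.14-fold lower (1.074 to 1.202). Of 13 genes of glutamine, glutamate and aspartate metabolism 10 lay below 1, while Glud1, glutamate dehydrogenase, had a ratio of 1.12 (1.07 to 1.16).

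Amino acid transporters of other families had 6 of 17 genes above 1 and 11 below, none past 1.3-fold. Spns1, a lysosomal carrier, was 1.24-fold lower (1.08 to 1.42). Among 11 regulators of transporter trafficking, the kinase Sgk1, which raises several carriers at the cell surface, was at 24.0 RPKM in KXH and 19.0 in water, 1.27-fold higher (1.146 to 1.401). Txnip, which removes the glucose carrier from the surface, was at 286.5 and 360.9 RPKM, 1.26-fold lower (1.23 to 1.29). Serine, glycine and one-carbon genes (3 of 10 above 1) and the kinases and phosphatases of eIF2alpha (7 of 12 above 1) held none past 1.3-fold. Within the latter, Eif2ak4, the kinase that senses uncharged transfer RNA, was 1.29-fold lower (1.09 to 1.52) on 255 and 353 reads.

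Cell markers differed in the same libraries, counted here over all listed genes of each list. For comparison, 54.7% of all genes with at least 200 reads lay below 1. All 12 endothelial markers had a ratio below 1, with a summed level of 654.7 RPKM in KXH and 727.0 in water, and 9 of 10 smooth muscle and pericyte markers did. The exception was Des, which cardiomyocytes also express, and the sum without it was 409.5 RPKM in KXH and 470.6 in water. Myh11, the smooth muscle myosin heavy chain, was 1.53-fold lower (1.39 to 1.69). Fibroblast markers had 8 of 10 above 1 (942.6 and 848.8 RPKM) and cardiomyocyte markers 7 of 10 (42816 and 39807 RPKM). Adipocyte markers had 6 of 7 higher in KXH, of which 4 had under 10 reads. Those 6 include Plin1, Cidec and Ucp1, which had 1 read in KXH and 0 in water and so no ratio. Lymphocyte markers had 3 of 8 above 1. The part of these cells in the transporter values was not tested.

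**Figure D5:**
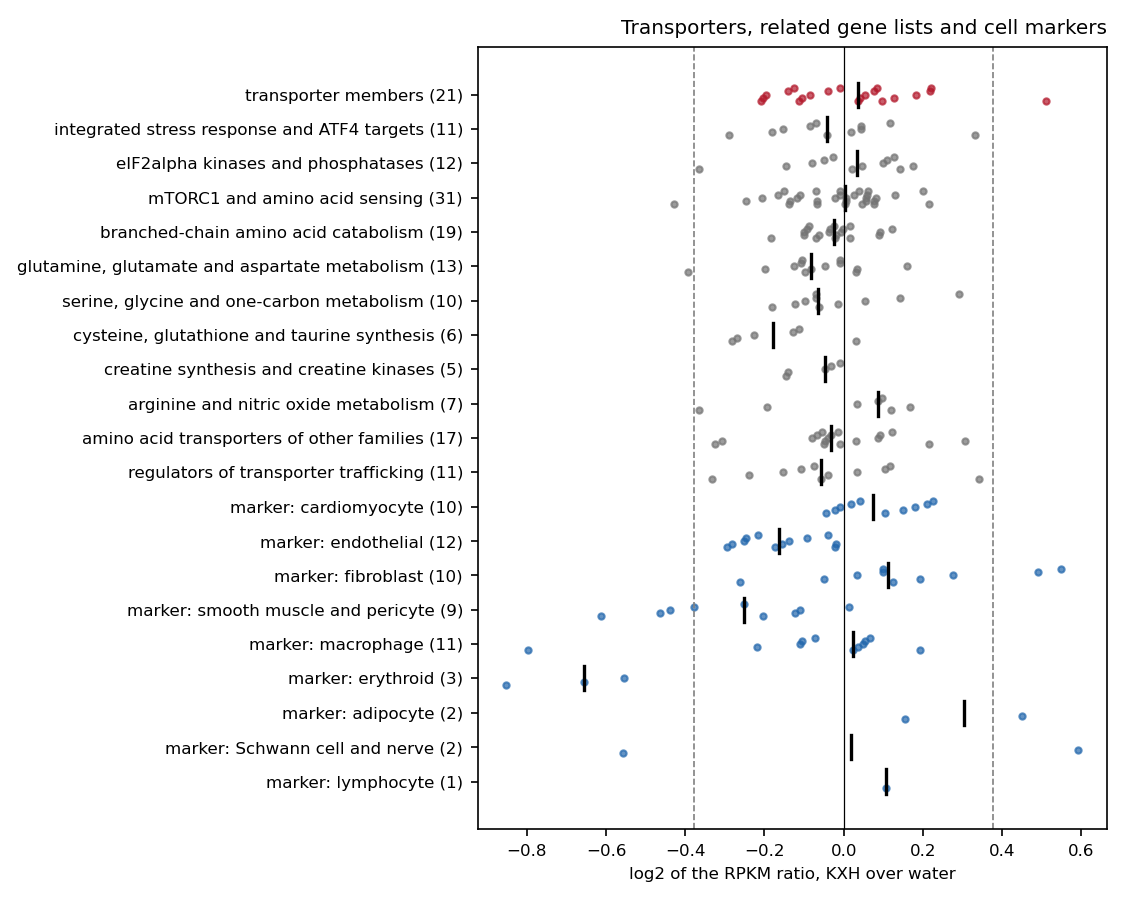
Log2 RPKM ratio of KXH over water for the members (red), the genes of the 11 related lists (grey) and cell markers (blue), each with at least 200 reads over both libraries; black bars are medians, dashed lines 1.3-fold, and numbers of genes stand in parentheses. Slc7a1 is the red point past the upper line, and no grey point lies past it. The erythroid and endothelial markers lie to the left, as do the smooth muscle and pericyte markers except Des.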

How the data were processed

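Myocardial RNA of 1 KXH and 1 water rat library was analysed, grouped by the agent in the labels. The authors deposited for each protein-coding gene a whole count of unique reads, per the file headers. They also deposited RPKM, which equals the count per kilobase of listed length per 1000000 reads of the table total, and percent coverage, which exceeds 100 for some genes. Per the labels' protocols, libraries were made from total RNA with a TruSeq kit. The submitters' processing notes name Bowtie 0.12.2 and rn6 without their roles. Which annotation and counting program were used, and whether strand was, is not given in the sources used here. The lncRNA tables were not used.

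A gene absent from a table was given 0 reads. Ratios are RPKM ratios with nothing added, with 95% Clopper-Pearson intervals on the share of reads from KXH. They cover counting error only, since reads carry no molecular identifiers. Medians use log2(RPKM + 1). Calls needed 200 reads over both libraries and 1.3-fold, and background shares were computed over all genes alike. No count model was fitted between single libraries. The ratio and interval were tested on simulated data. All 47 members are named. In each list, genes named are among the 4 with at least 200 reads farthest from a ratio of 1, except Sox10, Cdh19, S100b, Dbh, Gamt, Nos1, Nos2 and Des, which were chosen after their values were seen. Symbols were matched to RefSeq (GRCr8), 46 as current and 1 as an older name. A further 15 symbols of these families are not analysed here. The members, lists and motifs were chosen with earlier results of these data known. Scaling, filters, fold, pseudocount and a length trend were varied. Tools were edgeR 4.0.16 in R 4.3.3 (scaling factors only), scipy 1.17.1, numpy 2.4.6, pandas 2.3.3 and matplotlib 3.10.9 in Python 3.11.15.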

Additional observations from a re-analysis of the deposited data

How the results depend on the processing

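Counts depended on the read minimum. With a mean of at least 1 RPKM in its place, 4 of 29 members were at least 1.3-fold lower (6.63% of all genes). An interval below 1 was held by 7 of these 29, a share not computed over all genes at that filter. With every member of at least 1 read, 12 were lower (15.1% of all genes), 6 higher (10.4%) and 7 had an interval below 1 (13.5%). At a minimum of 1000 reads 0 were higher (0.693% of all genes), because Slc7a1 has fewer reads. At a fold of 1.5 or 2 also 0 were higher in each, and the shares over all genes at those folds were not computed. The median log2 ratio of the members changed sign to -0.055 with a mean of at least 1 RPKM, -0.032 with at least 1 read and -0.11 with at least 1000 reads, where other members enter or leave. Trimmed-mean scaling, centring and removal of the length trend left the counts within 1.5 times of those reported. Of 72 ratios of 24 members recomputed under these 3 settings, 71 stayed on their side of 1 or kept an interval including 1, and 1, that of Slc6a17 without the length trend, had an interval that came to include 1. No paired analysis was possible because each group has 1 library. Depth limits the 26 members under 200 reads.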

Other observations

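Several transcripts of peripheral nerve glia were lower in KXH, most of them on few reads. Cdh19, an adhesion protein of Schwann cells, was at 0.918 RPKM in KXH and 2.65 in water, 2.89-fold lower (1.89 to 4.51). Sox10, a transcription factor of the neural crest, was 2.32-fold lower (1.61 to 3.38). S100b, a calcium-binding protein of glia, was 3.49-fold lower (1.56 to 8.81). The neuronal filament gene Prph went the other way, at 5.07 and 3.36 RPKM, 1.51-fold higher (1.140 to 2.003), and the transmitter enzyme Dbh had 15 and 18 reads. These genes were named after their values were seen, and with 1 library per group there is no replicate check.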
